A study of Homo sapiens with 32 samples.

Results

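Fatty acid synthesis and desaturation was described through 10 genes: the regulator SREBF1, the synthesis enzymes ACACA, ACACB and FASN, the elongases ELOVL5 and ELOVL6, the desaturases SCD, FADS1 and FADS2, and ME1, which supplies reducing power. They were found by symbol among the 60107 genes of the deposited tables, and 9 of the 10 passed the filter on low counts that 12406 genes passed. RNA of THP-1 cells, a human monocytic leukaemia line, was sequenced as 32 libraries, 4 in each of 8 groups, with the QuantSeq 3′ mRNA-Seq kit. WT, HA and SA cells are THP-1 cells with a knockout of ACLY, the enzyme that makes acetyl-CoA from citrate, that re-express wild type, H760A or S455A ACLY from a lentiviral EF promoter vector under puromycin selection, and KO cells carry the knockout without re-expressed ACLY. H760A is catalytically inactive, and S455A cannot be phosphorylated at this serine. Each line was left untreated or was treated with LPS, the bacterial endotoxin that stimulates monocytes, for 3 hours at 100 ng/ml by the sample labels (10 ng/ml where the methods describe cell treatments). All lines share the knockout background, there is 1 line per genotype, and whether the KO cells were transduced is not stated in the sources used here, so that other differences between the lines cannot be told apart from the genotype. The methods describe data in general as coming from independent experiments, but nothing ties this or separate cultures to the 4 libraries of a group, so p-values measure only the spread between these libraries, which may be technical.

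Fatty acid synthesis starts from cytosolic acetyl-CoA. Acetyl-CoA carboxylase makes malonyl-CoA from it, fatty acid synthase joins these units into palmitate with electrons from NADPH, elongases lengthen the chain, and desaturases add double bonds. The genes of this route are under common control of the SREBP transcription factors, which are held in the endoplasmic reticulum by INSIG proteins when lipids are plentiful and are processed and sent to the nucleus when they are scarce. In monocytes and macrophages the route supplies membrane lipids, and ACLY connects it to mitochondrial citrate.

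Values are joint normalized counts, that is, the reads of each gene divided by a size factor computed over all 32 libraries. Only the 3′ end of a transcript is read, so counts do not grow with gene length and can be set side by side between genes. The depth was 6504099 to 14750815 reads on genes, and its median 10247620. In the LPS treated cells, the cytokine genes TNF and IL1B were higher over the lines, by 0.89 ± 0.08 and 2.07 ± 0.19 on the log2 scale (SE, adjusted p = 9.03e-10 and 4.92e-09, limma). In single lines the rise did not pass the test in WT for either gene (TNF 0.63 ± 0.15, adjusted p = 0.0658, and IL1B 1.35 ± 0.38, adjusted p = 0.27) nor in KO for IL1B (1.73 ± 0.38, adjusted p = 0.0147), and it passed for TNF in KO and for both genes in HA and SA. All 9 monocytic markers were expressed, whereas no marker listed for T cells, epithelium, fibroblasts or adipocytes reached a mean of 10 counts, and PECAM1 and APOA1 alone did so among those for endothelium and hepatocytes. The summed level of the monocytic markers was 1463 to 3648 CPM (reads scaled to the library total) in the 16 KO and HA libraries and 592 to 983 in the 16 WT and SA libraries, with LYZ and CSF1R higher and CD33 and ITGAM lower (adjusted p below 0.01), so the lines compared here also differed in these markers. The part of this difference in the results given below was not tested. A single library, replicate 1 of SA with LPS, stood apart, with 13460 genes with a read against 14953 to 18552 in the other 31, and 12.4% of its reads on its 10 most abundant genes against 6.61% to 10.9%.

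The knockout cannot be checked with these data, because a 3′ tag reports neither the edit nor the protein. ACLY, the gene targeted, averaged 101.6 ± 11.4 normalized counts in untreated WT cells, 88.5 ± 17.4 in KO, 96.7 ± 28.9 in HA and 142.7 ± 27.8 in SA cells (SD, n = 4 each). With LPS it was at 109.9 ± 12.8, 76.7 ± 17.0, 71.9 ± 12.4 and 158.8 ± 113.5, and the last spread came from replicate 1 at 328.8, without which SA with LPS was at 102.1 ± 7.46 (n = 3). ACLY transcript was therefore present in the KO libraries, with a KO minus WT log2 difference of -0.21 ± 0.28 untreated and -0.53 ± 0.28 with LPS (SE, adjusted p = 0.884 and 0.358, limma), and the libraries are named by their labels.

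FADS1, FASN, SCD and ELOVL5 were the abundant transcripts of the route. In WT cells FADS1, the desaturase of the later step in polyunsaturated fatty acid synthesis, was at 3130 ± 473 normalized counts (SD, n = 4). FASN, fatty acid synthase, followed at 2028 ± 228, SCD, which makes monounsaturated from saturated fatty acids, at 1558 ± 414, and ELOVL5, an elongase of polyunsaturated chains, at 1212 ± 89.4. ME1, the cytosolic malic enzyme that yields NADPH, was at 443.2 ± 49.5, ACACA, the cytosolic acetyl-CoA carboxylase, at 356.6 ± 22.7, and FADS2, the desaturase of the first step in polyunsaturated fatty acid synthesis, at 345.2 ± 143.8. The lowest were ACACB, the carboxylase of the mitochondrial outer membrane, at 89.3 ± 25.4 and SREBF1, which encodes the transcription factor SREBP-1, at 75.4 ± 22.3. In this order the WT libraries of FASN overlapped those of SCD, those of SCD overlapped ELOVL5, those of ACACA overlapped FADS2 and those of ACACB overlapped SREBF1, and these neighbours were not separated by the spread of the libraries. FADS1, FASN, SCD and ELOVL5 kept the ranks from 1 to 4 in each of the 8 groups. Of ELOVL6, the elongase of saturated and monounsaturated chains, 3 reads were counted among 324545509, all in replicate 4 of HA. The other 31 libraries had 0 reads, which allows up to 0.203 CPM in the deepest and 0.461 in the shallowest library, and covers counting error only. ELOVL6 was not detectable at this depth in 7 of the 8 groups and was not tested.

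**Figure D1:**
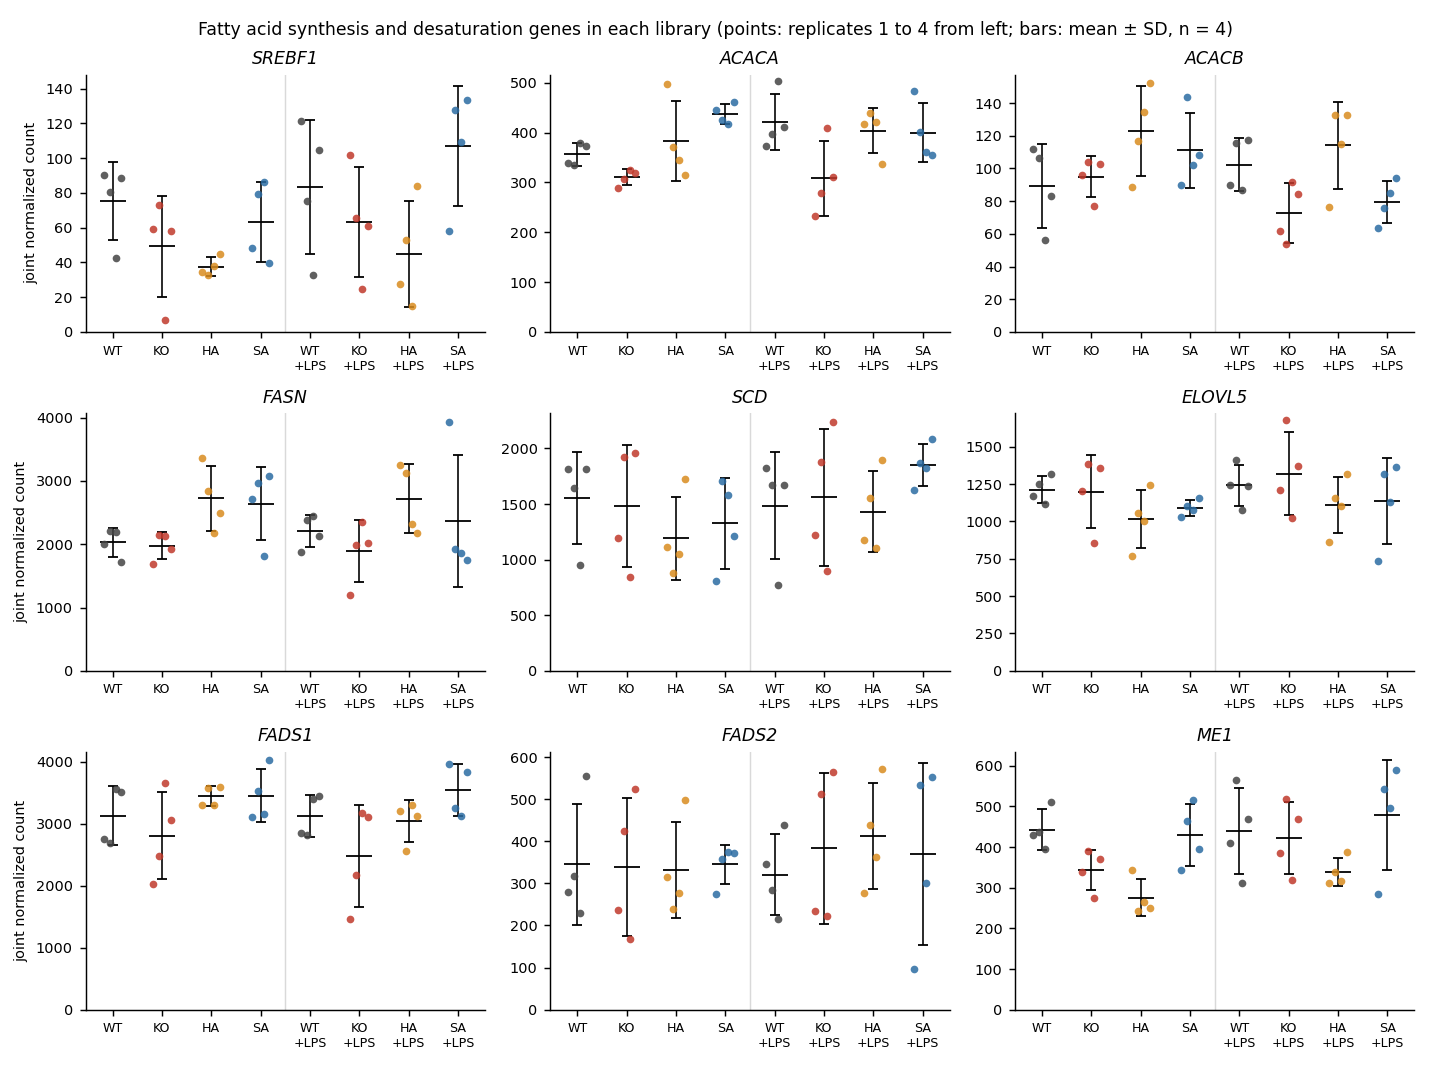
Joint normalized counts of the 9 tested genes in each library (points, replicates 1 to 4 from left to right), with mean ± SD of each group of 4 (bars), untreated groups left and LPS groups right of the grey line. ME1 is lowest in HA, SREBF1 spreads widely within its groups, and replicate 1 of SA with LPS is high in FASN and low in FADS2.

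On GRCh38, in the GENCODE release 44 annotation, SREBF1 lies at chr17:17810399-17837002, ACACA at chr17:37084992-37406836 and FASN at chr17:82078338-82098294, all 3 on the minus strand. ACACB lies at chr12:109116587-109268226 and SCD at chr10:100347233-100364826 on the plus strand, and ELOVL6 at chr4:110045846-110199199, ELOVL5 at chr6:53267398-53349179 and ME1 at chr6:83210402-83431051 on the minus strand. FADS2 (chr11:61792980-61867354, plus strand) holds the whole of FADS1 (chr11:61799627-61829318, minus strand) in this annotation, over 29692 bases. Among protein-coding genes, SREBF1 overlaps RAI1 and ACACA overlaps C17orf78 on the opposite strand. ACACB overlaps UNG and FADS2 overlaps FEN1 on the same strand, so that the strand cannot separate these. All genes but FASN and SCD also overlap genes that do not code for protein, ELOVL6 among them. The kit keeps the strand of the transcript, but whether counting used it is not given in the sources used here. Counts of overlapping genes, and of FADS1 and FADS2 above all, could therefore hold reads of their partner or lack reads of their own.

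The 250 bases before the transcription start are given for ME1, the only gene of the 10 that passed the test in any comparison, and for SREBF1, which had the largest difference in the same comparison. Both were taken from RefSeq, GRCh38.p14, at chr6:83431052-83431301 and chr17:17836987-17837236, and are written 5′ to 3′ on the minus strand, the strand of the gene, with matches to the motifs searched in capitals.
ME1: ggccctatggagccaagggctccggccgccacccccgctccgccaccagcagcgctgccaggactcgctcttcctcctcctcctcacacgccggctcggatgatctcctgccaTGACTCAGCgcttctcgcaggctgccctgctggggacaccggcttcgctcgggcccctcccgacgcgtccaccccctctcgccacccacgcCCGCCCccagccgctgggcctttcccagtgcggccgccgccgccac
SREBF1: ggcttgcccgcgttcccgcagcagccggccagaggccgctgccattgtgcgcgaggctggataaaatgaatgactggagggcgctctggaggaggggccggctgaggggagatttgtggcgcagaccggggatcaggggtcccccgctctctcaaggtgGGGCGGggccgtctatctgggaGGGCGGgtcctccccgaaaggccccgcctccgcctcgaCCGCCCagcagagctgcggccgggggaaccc
Both strands of 13 RefSeq windows of 300 bases, from 250 bases before to 50 after the start, were searched for 9 of the 10 genes, FASN being the exception. In ME1 the capitals mark TGACTCAGC, 137 bases before the start, a match to the core of the antioxidant response element (TGACNNNGC), and a GC box (GGGCGG, here on the other strand) 46 bases before it. A second match to TGACNNNGC, GCACCGTCA on the other strand, lies past the start and so outside the stretch printed. TGACNNNGC occurred in 13.3% of all 35116 windows and, of the 9 genes searched, in ME1 alone. In SREBF1 the capitals mark 3 GC boxes, a motif that 45% of all windows and 8 of the 9 genes hold. CCAAT was found in 34.6% of all windows and in ACACA, ACACB, ELOVL5, FADS2 and SCD, and the E-box CACGTG in 7.26% and in ELOVL5. The sterol regulatory element TCACNCCAC (1.13% of all windows) and the LXR element, 2 direct repeats of AGGTCA spaced by 4 bases (0.0199%), had no match in these windows. The motifs do not overlap in the ME1 and SREBF1 stretches printed, and a match is a description of the sequence only.

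To ask how the route responds to the loss of ACLY or of its activity, KO and HA cells were each compared with WT cells. No gene of the 9 passed the test in untreated KO cells, where 2.9% of the 12406 genes tested did (limma, adjusted p below 0.01, here and in the comparisons that follow). None passed in untreated HA cells either (2.52% of all genes), in KO cells with LPS (3.47%) or in HA cells with LPS (2.02%). Of the 9 genes, 0 had an unadjusted p under 0.05 in untreated KO cells and 0 in HA cells with LPS, 1 had it in untreated HA cells and 3 in KO cells with LPS, and over all genes the shares were 14.3%, 16.7%, 24.5% and 17.2%. The median log2 difference of the 9 genes was -0.11 in KO and -0.03 in HA, both untreated, beside -0.03 and -0.02 over all genes, and -0.26 and -0.04 with LPS beside -0.01 and -0.03.

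ME1 was the gene of the route with the lowest adjusted p in untreated HA cells. Its normalized counts were 429.4, 437.0, 394.2 and 512.0 in WT, 339.8, 390.6, 275.7 and 369.8 in KO, and 342.6, 241.9, 265.4 and 251.3 in HA. All 4 KO and all 4 HA libraries lay below all 4 WT libraries, a separation in either direction that 12% of all genes showed for KO and 17.6% for HA. The HA minus WT log2 difference was -0.69 ± 0.20 (SE, 95% confidence interval -1.11 to -0.27, adjusted p = 0.0382) and the KO minus WT difference -0.37 ± 0.20 (-0.79 to 0.05, adjusted p = 0.448), so neither passed the test. Without replicate 1 of SA with LPS, which enters through the shared estimate of the spread, the HA difference passed it (adjusted p = 0.00955). With LPS the 3 groups overlapped, as for the other 8 genes (13.9% of all genes did not overlap for KO and 13.5% for HA), with 410.0, 564.5, 311.9 and 469.9 in WT, 385.5, 518.6, 318.8 and 468.3 in KO, and 312.0, 338.6, 315.9 and 388.3 in HA.

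SREBF1 was lower in KO and HA means, with a wide spread. Its normalized counts were 90.2, 80.4, 42.6 and 88.4 in WT, 59.0, 73.0, 6.76 and 58.0 in KO, and 34.6, 32.7, 37.7 and 45.0 in HA. The lowest WT library, replicate 3, lay among the HA libraries, and the groups overlapped. The log2 difference from WT was -0.96 ± 0.57 in KO and -0.94 ± 0.57 in HA (SE, adjusted p = 0.505 and 0.303), with intervals of -2.12 to 0.21 and -2.11 to 0.23. Most of the KO value came from replicate 3 at 6.76 counts, without which the KO difference was -0.20 ± 0.49 (adjusted p = 0.968). By correlations over genes (see the processing), replicate numbers pair WT and KO libraries, though the best match of a library did not always share its number. KO was below WT of the same number in 4 of 4 pairs untreated and in 4 of 4 with LPS. ACACA and ME1 also had 4 of 4 untreated, and ACACA, FASN and FADS1 with LPS. The remaining counts ran from 1 of 4 (ELOVL5 untreated, SCD and FADS2 with LPS) to 3 of 4. How often all genes reach 4 of 4 was not counted. When untreated WT and KO libraries alone were fitted and matched by number, the SREBF1 difference was -0.96 ± 0.35 (SE, adjusted p = 0.0964). With LPS the WT mean was 83.5 ± 38.7, the KO mean 63.3 ± 31.6 and the HA mean 44.9 ± 30.5 (SD, n = 4).

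The carboxylases and FASN did not pass the test. ACACA in KO cells was at 289.8, 305.9, 325.7 and 319.2 normalized counts, below all WT libraries (339.2, 334.9, 378.6 and 373.7), with a log2 difference of -0.20 ± 0.15 (SE, adjusted p = 0.68). With LPS the KO libraries were at 232.5, 279.5, 409.0 and 310.9 and the WT libraries at 374.1, 396.3, 503.0 and 411.3. The difference was -0.47 ± 0.15 (adjusted p = 0.064), and the groups overlapped. KO was below WT in 4 of 4 pairs of the same number, as it was untreated. When KO and WT with LPS alone were fitted and matched by number, the SE was 0.12 (adjusted p = 0.0126). None of the 9 genes passed in such matched fits of KO and WT, untreated or with LPS. Without replicate 3 of KO with LPS, the highest of its group, the unmatched ACACA difference was -0.62 and passed the test (adjusted p = 0.00915). In HA cells ACACA differed from WT by 0.08 ± 0.15 untreated and by -0.06 ± 0.15 with LPS. ACACB differed by 0.13 ± 0.24 in KO and 0.48 ± 0.24 in HA (adjusted p = 0.928 and 0.206), and with LPS by -0.50 ± 0.24 in KO and 0.14 ± 0.24 in HA. FASN was at 1998, 2209, 2187 and 1716 in WT, 1689, 2150, 2131 and 1930 in KO, and 3367, 2849, 2182 and 2500 in HA. The KO and WT libraries of FASN overlapped over most of their range (log2 difference -0.04, interval -0.49 to 0.42), and 3 of the 4 HA libraries lay above all WT libraries (0.41, interval -0.04 to 0.87, adjusted p = 0.247).

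The desaturases and ELOVL5 showed no difference that passed the test either. SCD was at 1481 ± 552 in KO and 1191 ± 371 in HA against 1558 ± 414 in WT (SD, n = 4), and all 3 groups overlapped. ELOVL5 was at 1200 ± 242 in KO and 1018 ± 194 in HA against 1212 ± 89.4 in WT, with log2 differences of -0.04 ± 0.18 and -0.27 ± 0.18 (SE). FADS1 was at 2809 ± 703 in KO and 3445 ± 163 in HA against 3130 ± 473 in WT. With LPS, FADS1 in KO had 1466, 2172, 3165 and 3116 normalized counts against 2848, 2823, 3392 and 3443 in WT, a log2 difference of -0.39 ± 0.19 (adjusted p = 0.274), with replicates 1 and 2 of KO below all WT libraries and KO below WT in 4 of 4 pairs of the same number. FADS2 was at 338.7 ± 164.4 in KO and 332.4 ± 114.3 in HA against 345.2 ± 143.8 in WT, and its intervals ran from -0.97 to 0.80 and from -0.92 to 0.86, wide enough to hold large changes in either direction. With LPS the KO minus WT difference was -0.40 for SREBF1, -0.26 for FASN, 0.06 for SCD, 0.07 for ELOVL5, 0.18 for FADS2 and -0.05 for ME1, and the HA minus WT difference 0.29 for FASN, -0.01 for SCD, -0.17 for ELOVL5, -0.04 for FADS1, 0.36 for FADS2 and -0.35 for ME1. SREBF1 in HA with LPS was at 0.501 times the WT level on the fitted scale (interval of the log2 difference -2.16 to 0.17, adjusted p = 0.396). The SE of a gene was the same in each comparison of 2 groups, 0.57 for SREBF1, 0.22 for FASN, 0.32 for SCD, 0.19 for FADS1 and 0.43 for FADS2.

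**Figure D2:**
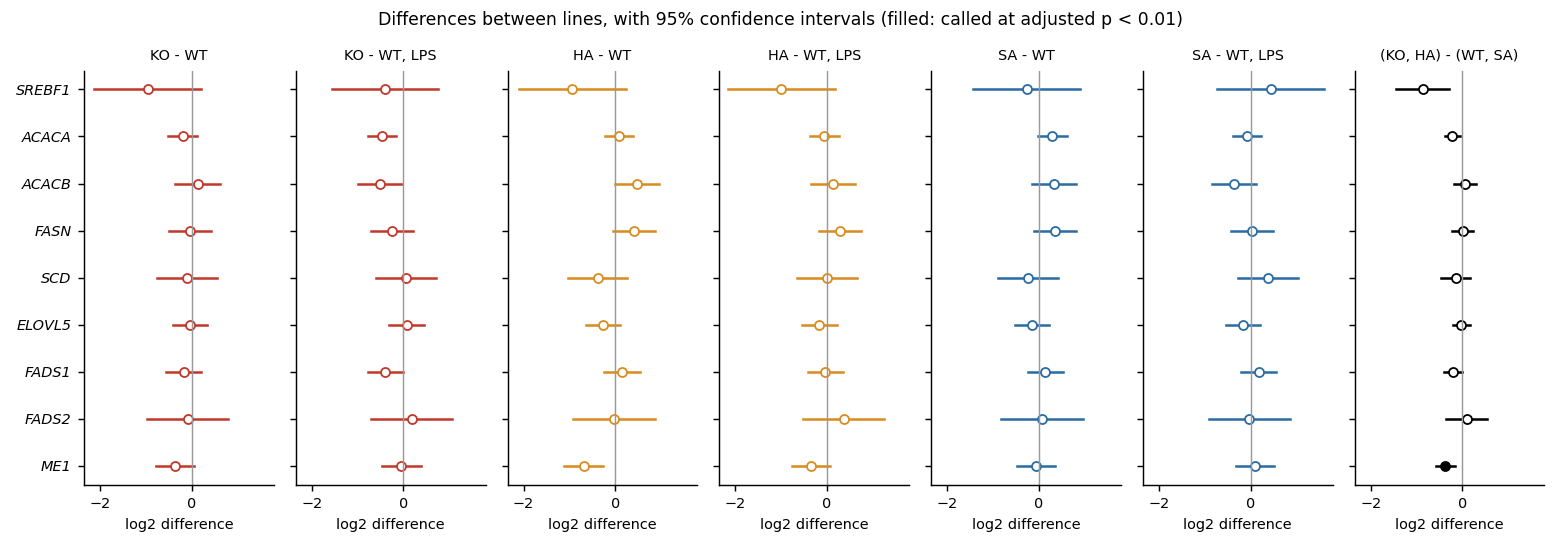
Log2 differences (points) with 95% confidence intervals (lines) of the 9 genes for KO, HA and SA against WT, untreated and with LPS, and, at the right, for the mean of KO and HA against the mean of WT and SA. The only filled point, a difference that passed the test, is ME1 in the last panel at -0.38, and SREBF1 and FADS2 have the widest intervals.

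S455A cells were compared with WT cells to ask whether the phosphorylation site matters. No gene of the 9 passed the test, untreated or with LPS, and neither did any of the 12406 genes tested (0% in both). The paper, from a count test, reports a few genes higher in SA than in WT cells after LPS. It also reports more genes for KO and HA cells with LPS than passed here. Whether the test, the scaling or another step gave this difference from the paper was not tested. Genes could differ between SA and WT cells without passing the test used here. At an unadjusted p under 0.05, 445 genes (3.59%) differed untreated and 646 (5.21%) with LPS, and 0 of the 9 in either. ACACA was at 446.0, 424.9, 416.7 and 462.1 normalized counts in SA, above all 4 WT libraries, with a log2 difference of 0.30 ± 0.15 (SE, interval -0.02 to 0.61, adjusted p = 0.998), and the groups did not overlap in 4.22% of all genes. With LPS the sign was opposite, at -0.08 ± 0.15, and SA and WT overlapped for all 9 genes (2.61% of all genes did not). FASN was at 2707, 2961, 1819 and 3083 in untreated SA cells (log2 difference 0.36 ± 0.22). In SA with LPS it was at 3930, 1921, 1866 and 1755, and the mean of 2368 ± 1044 fell to 1847 ± 84.4 without replicate 1 (SD, n = 4 and n = 3). ME1 differed by -0.05 ± 0.20 untreated and by 0.10 ± 0.20 with LPS (intervals -0.47 to 0.36 and -0.31 to 0.52). The untreated SA minus WT difference was -0.26 for SREBF1, 0.34 for ACACB, -0.24 for SCD, -0.15 for ELOVL5, 0.15 for FADS1 and 0.07 for FADS2. With LPS it was 0.44 for SREBF1, -0.36 for ACACB, 0.02 for FASN, 0.39 for SCD, -0.16 for ELOVL5, 0.18 for FADS1 and -0.03 for FADS2.

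Because HA and KO both lack ACLY activity while WT and SA have it, the 16 KO and HA libraries were also compared with the 16 WT and SA libraries, averaged over LPS. ME1 was lower in KO and HA, and it was the 1 gene of the 9 that passed the test, where 14.6% of all genes passed and 6.75% passed as lower. Its normalized counts ran from 241.9 over a median of 339.2 to 518.6 in KO and HA and from 283.6 over 450.6 to 590.8 in WT and SA. Of the 16 KO and HA libraries, 14 lay below the WT and SA median. The log2 difference was -0.38 ± 0.10 (SE, interval -0.58 to -0.17, adjusted p = 0.00734), a level of 77.1% of that in WT and SA by the means. The sides of this comparison are those that differed in the summed monocytic markers, and in bulk RNA fewer cells with the transcript and less of it per cell cannot be told apart. Each side holds 2 lines, so the p-value covers the spread of the libraries and not of lines. The call stood close to the threshold: leaving out 1 of the 32 libraries gave adjusted p-values from 0.000375 to 0.0151, and the call was lost in 20 of these 32 fits, as it was with no filter on low counts (adjusted p = 0.0139). It was kept without WT replicate 3, KO replicates 2 and 4, HA replicate 1, SA replicates 1 and 4, WT with LPS replicates 1 and 3, KO with LPS replicates 2 and 4, HA with LPS replicate 4 or SA with LPS replicate 1, and lost without any other. The lower level was found in all 8 pairings of a KO or HA group with a WT or SA group of the same treatment, which reuse the same 8 groups, from -0.69 for HA against WT untreated to -0.05 for KO against WT with LPS. The log2 difference tested is the mean of these pairings, so they add no separate evidence. How often all genes have the same sign in all 8 was not counted.

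SREBF1 had a larger difference in this comparison, with a wider error. Its normalized counts ran from 6.76 over a median of 49.0 to 102.0 in KO and HA and from 32.8 over 83.3 to 133.4 in WT and SA, and 14 of the 16 KO and HA libraries lay below the WT and SA median. The log2 difference was -0.87 ± 0.28 (SE, interval -1.45 to -0.29, adjusted p = 0.0257) and did not pass the test. With the replicate number as a block it passed (adjusted p = 0.00909). However, by the rule used here replicate numbers pair only WT and KO libraries. They do not pair those of HA or SA, on which the block also acts. All 8 pairings of groups, of which the difference tested is again the mean, were lower. They ran from -1.44 for HA against SA with LPS to -0.40 for KO against WT with LPS, and in each of the 8 the libraries overlapped. ACACA differed by -0.22 ± 0.08 (adjusted p = 0.0379), and 2 of its 8 pairings had the other sign. On the deposited scale, on which each line was normalized on its own, ACACA passed the test at -0.32 (adjusted p = 0.00218), and without replicate 3 of KO with LPS it passed at -0.25 (adjusted p = 0.00974).

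The remaining genes of the route did not pass the test. FASN differed by 0.00 ± 0.11 (SE, interval -0.22 to 0.23), ELOVL5 by -0.02 ± 0.09 (-0.21 to 0.17), ACACB by 0.06 ± 0.12 (-0.18 to 0.31), FADS1 by -0.20 ± 0.09 (-0.39 to -0.0044, adjusted p = 0.134) and SCD by -0.15 ± 0.16 (-0.48 to 0.18). FADS2 had the widest of these, 0.09 ± 0.22 (-0.35 to 0.54), and the intervals of SCD and FADS1 downwards and of FADS2 upwards would hold a difference of the size of that of ME1. At an unadjusted p under 0.05, SREBF1, ACACA, FADS1 and ME1 differed, 4 of the 9, where 34.9% of all genes did, and the median over the 9 genes was -0.15 beside -0.01 over all genes.

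KO and HA cells were compared with each other to ask whether the absent and the inactive enzyme leave the route at the same level. No gene of the 9 passed the test untreated (0.226% of all genes) or with LPS (0.00806%). FASN in untreated KO cells, at 1689 to 2150 normalized counts, lay below all HA libraries, at 2182 to 3367, with a log2 difference of -0.45 ± 0.22 (SE, adjusted p = 0.486), and groups did not overlap in 4.98% of all genes. With LPS the KO minus HA difference was -0.55 ± 0.22 for FASN, -0.41 ± 0.15 for ACACA and -0.64 ± 0.24 for ACACB (adjusted p = 0.368, 0.305 and 0.297, and unadjusted p under 0.05 for these 3 genes beside 10.5% of all), and KO and HA overlapped for all 9 genes (5.09% of all genes did not). The KO minus HA difference of ME1 was 0.32 ± 0.20 untreated and 0.30 ± 0.20 with LPS. Untreated it was -0.02 for SREBF1, -0.28 for ACACA, -0.35 for ACACB, 0.28 for SCD, 0.23 for ELOVL5, -0.33 for FADS1 and -0.06 for FADS2, and with LPS 0.59 for SREBF1, 0.07 for SCD, 0.24 for ELOVL5, -0.36 for FADS1 and -0.18 for FADS2.

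LPS left the transcripts of the route without a change that passed the test. Of the 9 genes, 0 passed it in WT (0.25% of all genes did), KO (0.58%), HA (0.403%) or SA cells (0.492%) or averaged over the lines (1.78%), and 0 had an unadjusted p under 0.05 in any of these 5 comparisons, where the shares over all genes were 1.61%, 5.42%, 4.76%, 9.85% and 10.4%. Untreated and LPS libraries overlapped for each of the 9 genes in each line, while 2.6%, 3.45%, 3.49% and 4.18% of all genes did not overlap in WT, KO, HA and SA. Averaged over the lines, FASN differed by -0.05 ± 0.11 (SE, interval -0.28 to 0.18), ACACA by 0.04 ± 0.08 (-0.12 to 0.19), ELOVL5 by 0.08 ± 0.09 (-0.11 to 0.27) and FADS1 by -0.09 ± 0.09 (-0.28 to 0.10). The interval was -0.04 to 0.38 for ME1, -0.43 to 0.05 for ACACB, -0.13 to 0.52 for SCD, -0.38 to 0.51 for FADS2 and -0.23 to 0.93 for SREBF1. In single lines the log2 LPS difference ran from -0.01 (HA) to 0.75 (SA) for SREBF1, from -0.14 (SA) to 0.23 (WT) for ACACA, from -0.47 (SA) to 0.23 (WT) for ACACB and from -0.22 (SA) to 0.12 (WT) for FASN. It ran from -0.10 (WT) to 0.53 (SA) for SCD, from 0.02 (SA) to 0.14 (KO) for ELOVL5, from -0.21 (KO) to 0.04 (SA) for FADS1, from -0.17 (SA) to 0.32 (HA) for FADS2 and from -0.04 (WT) to 0.31 (HA) for ME1. The response of KO, HA or SA minus that of WT passed the test for 0 of the 9 genes, and over all genes for 0.00806%, 0% and 0% (1.41%, 1.14% and 3.68% at an unadjusted p under 0.05). These differences of the responses ran from -0.63 (ACACB) to 0.55 (SREBF1) for KO, from -0.34 (ACACB) to 0.39 (FADS2) for HA and from -0.70 (ACACB) to 0.70 (SREBF1) for SA. ACACB alone of the 9 had an unadjusted p under 0.05 there. Its log2 LPS difference was 0.23 ± 0.24 in WT and -0.47 ± 0.24 in SA, a difference of the responses of -0.70 ± 0.33 (adjusted p = 0.998).

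**Figure D3:**
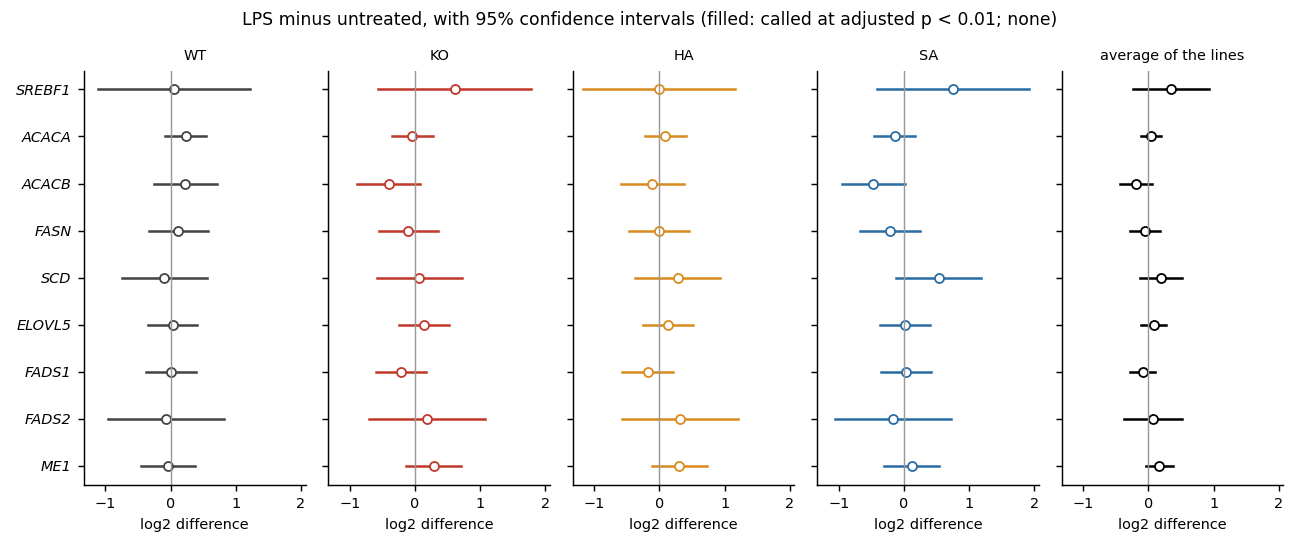
Log2 differences (points) of LPS minus untreated with 95% confidence intervals (lines) for the 9 genes in each line and averaged over the lines. All points are open, since no difference passed the test, and the intervals of the average lie within 0.6 of 0 on the log2 scale except for SREBF1.

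Several genes of the route also moved with the replicate number. In WT and KO cells, with and without LPS, replicate 3 had the lowest SCD count of its group: 948.6 in WT, 771.5 in WT with LPS, 844.6 in KO and 893.4 in KO with LPS, beside 1195 to 2242 in the other 12 libraries. SREBF1, FADS2, ELOVL5 and ME1 were also lowest in replicate 3 in all 4 groups, with log2 deviations from the group mean of -2.28 to -0.75 (SREBF1), -0.86 to -0.50 (FADS2), -0.46 to -0.12 (ELOVL5) and -0.46 to -0.16 (ME1). ACACA moved the other way, with its highest count in replicate 3 in all 4 groups, and FADS1 had its highest there in 3 of 4. The same 4 libraries had the largest share of reads on their 10 most abundant genes in their groups, 8.97% to 10.9% against 6.61% to 8.74% in the other 12. What replicate 3 stands for is not given in the labels, and the part of this difference in the counts was not tested.

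**Figure D4:**
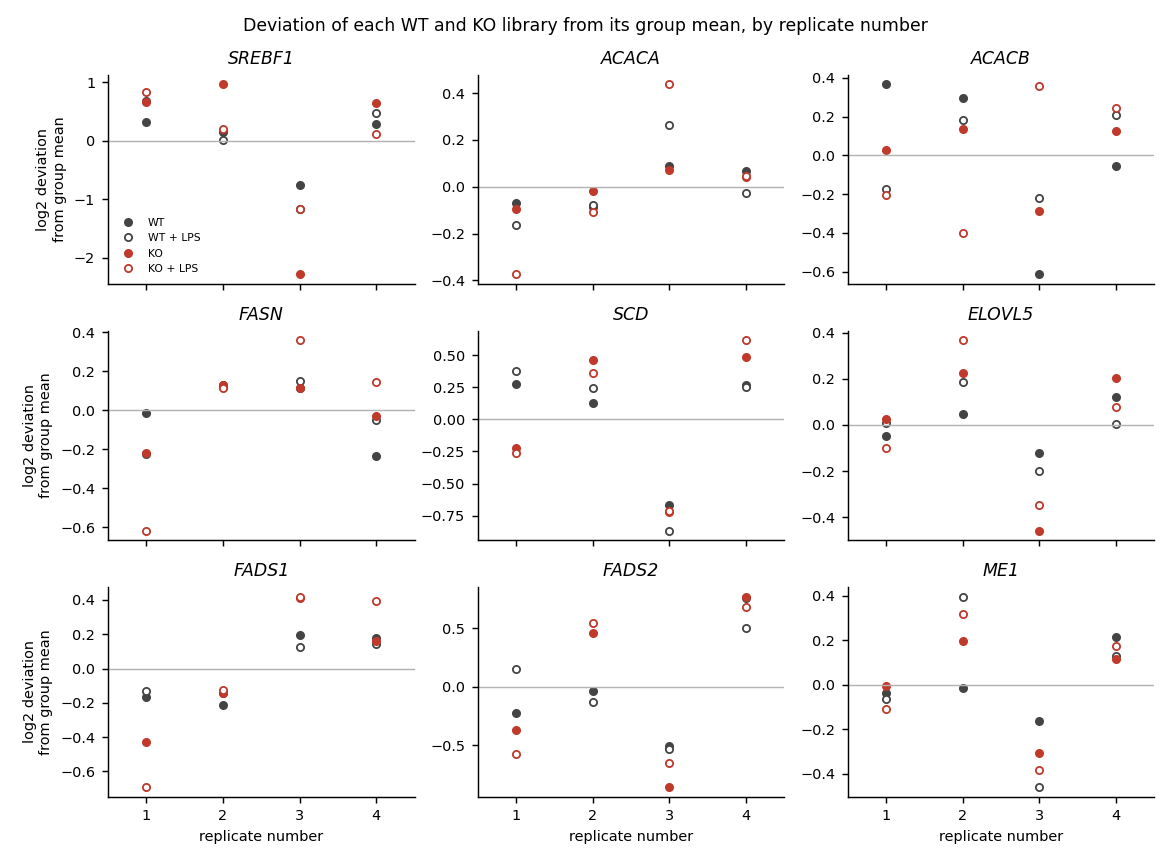
Deviation of each WT and KO library from its group mean on the log2 scale, by replicate number (filled, untreated; open, with LPS). Replicate 3 lies below 0 for SREBF1, SCD, FADS2, ELOVL5 and ME1 in all 4 groups and above 0 for ACACA, FASN and FADS1.

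The wider pathway was followed through 51 other genes of acetyl-CoA supply, SREBP control, elongation, desaturation, NADPH supply and fatty acid use, of which 45 were tested. None passed the test in KO, HA or SA against WT, with or without LPS, or in any LPS comparison. In KO and HA against WT and SA, 7 of the 45 passed it, 2 higher and 5 lower, that is, 15.6% beside 14.6% of all genes, and the median of the list was 0.00 beside -0.01. In acetyl-CoA supply 2 of 3 genes passed (14.6% of all genes did): ACSS2, which makes acetyl-CoA from acetate and so bypasses ACLY, was higher by 0.63 ± 0.15 (SE, adjusted p = 0.00213), and ACLY itself was lower by 0.56 ± 0.14 (adjusted p = 0.00385). Against WT, ACLY differed by -0.21 in KO, -0.11 in HA and 0.47 in SA untreated, and by -0.53, -0.61 and 0.32 with LPS. The vectors held the coding sequence of ACLY, and whether 3′ tags count the re-expressed transcript was not tested. ACSS2 ran from 96.1 over a median of 167.5 to 336.4 normalized counts in KO and HA and from 86.2 over 106.8 to 308.0 in WT and SA, and 15 of the 16 KO and HA libraries lay above the WT and SA median.

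In glycerolipid synthesis, where the fatty acids are used, 3 of 6 genes passed, 2 of them lower, beside 14.6% of all genes and 6.75% as lower. GPAM, the acyltransferase of the first step, was lower by 0.83 ± 0.11 (adjusted p = 1.72e-06). It ran from 55.1 over a median of 76.1 to 111.8 normalized counts in KO and HA and from 107.5 over 129.3 to 247.8 in WT and SA. DGAT2, which makes triacylglycerol in the last step, was lower by 0.36 ± 0.07 (adjusted p = 0.000283), and PNPLA3, a lipid droplet protein, was higher by 0.67 ± 0.18 (adjusted p = 0.00624). The PNPLA3 call was lost in 14 of 32 fits that left out 1 library, in which the adjusted p reached 0.0126: those without WT 2, KO 3 or 4, HA 1, SA 2 or 3, or, with LPS, WT 2 or 4, KO 3 or 4, HA 1 or 4, or SA 3 or 4 (replicate numbers). It was also lost with the values as deposited and with no filter on low counts. Among desaturases and their electron donors 2 of 5 passed, both lower (6.75% of all genes passed as lower): SCD5, a second stearoyl-CoA desaturase, by 0.85 ± 0.19 (adjusted p = 0.0017) and CYB5R3, the reductase that passes electrons towards the desaturases, by 0.26 ± 0.06 (adjusted p = 0.00259). SREBP control had 0 of 6 past the test. SREBF2, which encodes SREBP-2, the main regulator of sterol synthesis, differed by 0.27 ± 0.09 (adjusted p = 0.0277) and INSIG1 by 0.50 ± 0.17 (adjusted p = 0.0326), with all 16 KO and HA libraries of INSIG1 above the WT and SA median. Against WT, SREBF2 differed by 0.42 in HA and 0.04 in KO untreated, and by 0.40 and 0.11 with LPS. None of the other regulators, the mitochondrial synthesis genes, the other elongation enzymes, the NADPH genes or the acyl-CoA synthetases passed.

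**Figure D5:**
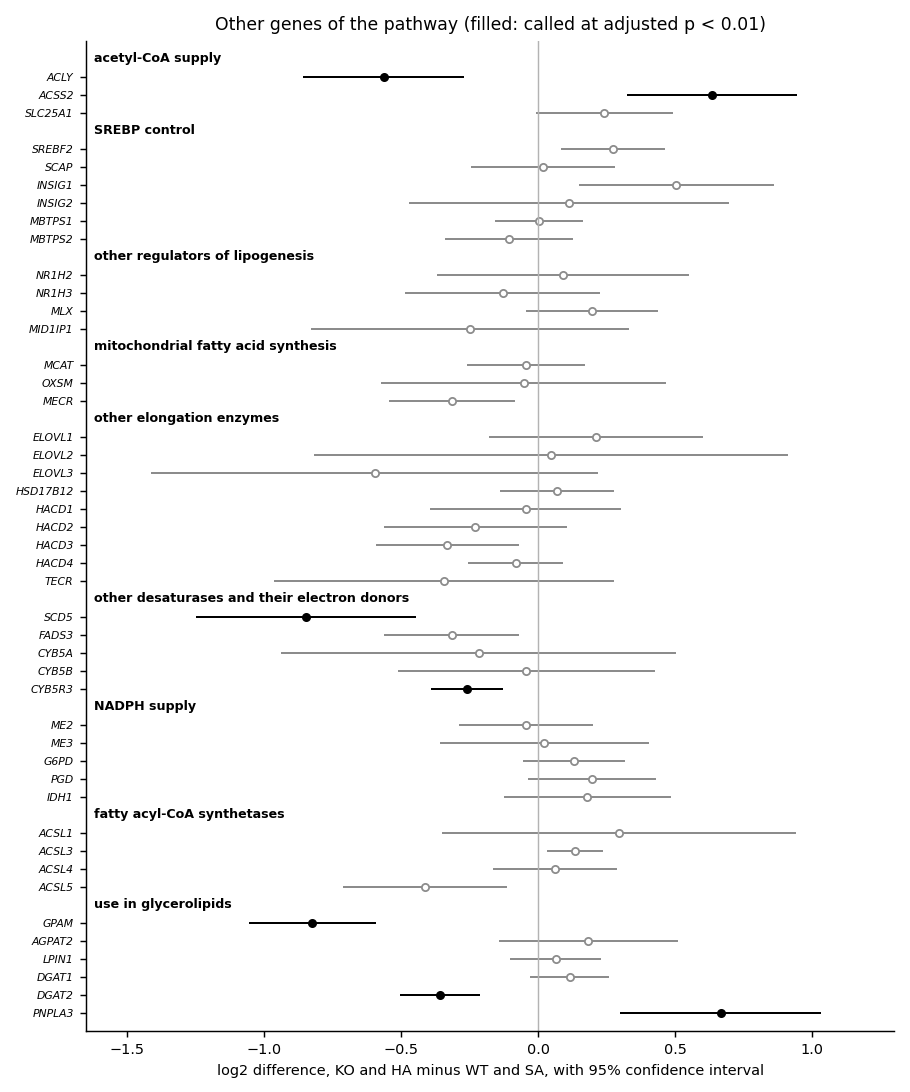
Log2 differences (points) with 95% confidence intervals (lines) of the 45 tested genes of the wider pathway for the mean of KO and HA against the mean of WT and SA, by role. The 7 filled points, those that passed the test, are ACLY, SCD5, CYB5R3, GPAM and DGAT2 below 0 and ACSS2 and PNPLA3 above 0.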

How the data were processed

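RNA of 32 THP-1 libraries in 8 groups of 4 was analysed. Groups and replicate numbers came from the sample titles. Per the labels and methods, the authors mapped reads to GRCh38 and normalized them with DESeq2 (versions not given in the sources used here), and they deposited normalized counts with decimal commas, 1 table per group, replicates not pooled. The values could not be declared as a count unit, and no count test was run. In every library 100.000% of the deposited values above 0 were whole multiples of 1 number within 0.05 reads, which gave the reads back. Size factors in the deposited values equalled those of each line's own 8 libraries, so lines were rescaled jointly by median-of-ratios over 12406 genes, which assumes that most genes did not change and moved size factors by up to 14.9%. Of 60199 rows per table, 92 spike-ins with 1 read in all were left out.

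The test, for genes whose mean deposited count reached 10, was limma (3.58.1, R 4.3.3) applied to log2(joint normalized count + 1), with a mean for each group and eBayes with a trend. Adding 1 understates the change of low genes. P-values, two-sided, were adjusted by Benjamini-Hochberg over all 12406 genes, with a threshold of 0.01. The members and lists were chosen with earlier results of these data known. The 10 genes are described in every comparison whatever their values, except ELOVL6, which was not tested. Of the wider list, ACLY, ACSS2, SREBF2 and INSIG1 are always named, with up to 10 genes with the smallest adjusted p among those called for a line against WT or for KO and HA against WT and SA, and TNF and IL1B check LPS. Molecular identifiers were not used, so depth covers counting error only. Replicate numbers were checked through the correlation of deviations from group means, taken over genes: every correlation between same-numbered WT and KO libraries, with and without LPS, was over 0.1 (0.124 to 0.723), whereas for pairs with an HA or SA group it was not. Between these WT and KO groups, the best match of a library had its own number for 2 to 4 of 4 libraries. For pairs with an HA or SA group it did for 0 to 3 of 4, the 3 being HA beside SA with LPS. The fit was tested on simulated data. Other scalings, pseudocounts, filters, blocks, weights and left-out libraries were tried.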

Additional observations from a re-analysis of the deposited data

Results flagged for a closer look

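Among 144 groups of 4 libraries (9 genes of the route and 9 named genes of the wider pathway in 8 groups), 6 had a library far from the other 3 by Dixon's test, which chance gives in about 1 of 20 groups. In SA with LPS, replicate 1 was high in FASN (3930 normalized counts against 1755 to 1921 in the others), ACLY (329 against 95.8 to 110.3) and ACSS2 (308.0 against 88.9 to 109.1). In WT with LPS, replicate 3 was low in SCD (771 against 1668 to 1824). In untreated SA, replicate 1 was low in FADS2 (275 against 358.9 to 374.8). In HA with LPS, replicate 1 was high in ACSS2 (336 against 147.4 to 169.3).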

How the results depend on the processing

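In 44 alternative settings the number of the 9 genes past the test stayed the same in 717 of 748 counts, and no called difference changed sign. In KO and HA against WT and SA the main count of 1 (ME1) became 0 with no filter on low counts (ME1 adjusted p = 0.0139, more genes tested), 2 with the values as deposited (ACACA and ME1), 2 with the replicate block (SREBF1 and ME1), also as the block with only the groups compared, 3 with library weights and 3 at an adjusted p of 0.05 (SREBF1, ACACA and ME1 in both), and 0 to 1 when 1 library was left out. In untreated HA against WT the count of 0 became 1 (ME1) with library weights, at an adjusted p of 0.05, without replicate 1 of SA with LPS and, chosen after seeing the data, without both this library and replicate 3 of KO, and it was 0 to 1 over the left-out libraries. In KO against WT with LPS it became 1 (ACACA) with library weights, and was 0 to 1 when 1 library was left out. Scaling by total reads, chosen after seeing the data, changed no count. Of 13141 values of single genes, 13049 kept their side of the threshold, 37 lost and 55 gained a call, and 443 that were not called took the other sign. The replicate block changed no other call of the 9 genes than that of SREBF1. It also acts on HA and SA libraries, whose replicate numbers do not pair by the rule used here. In KO and HA against WT and SA both block settings are the same fit. Fits with edgeR, with DESeq2 and with TMM scaling were not run, because the deposited values could not be declared as counts. A change under the intervals given could not be seen at n = 4, above all for SREBF1, with 5 to 199 reads per library.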
